A study of Schmidtea mediterranea with 28 samples.

Results

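The 200 transcripts described here are those that, in wild type planarians (*Schmidtea mediterranea*), were low in both the stem cell fraction and the progeny fraction and stood furthest above both in differentiated cells. They were chosen among 22944 transcripts by their cRPKM (reads per kilobase of uniquely mappable positions, scaled to mapped reads) in 4 wild type libraries. X1 and X2 had to lie within 0.5 of each other on log2(cRPKM + 1), the mean of the 2 Xins libraries had to reach 5 cRPKM, and 4384 transcripts met both conditions. These were ranked by the smaller of the distances of Xins from X1 and from X2, and the first 200 were kept. The levels in those 4 libraries are therefore a description and not a result, and the tests and counts of calls below use control and knockdown libraries, which had no part in the choice.

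Cells were sorted by DNA content and calcein staining into X1 (duplicated DNA, dividing neoblasts), X2 (unduplicated DNA, low calcein, a mixture of resting neoblasts and their progeny) and Xins (high calcein, differentiated cells). The 19 sorted libraries came from wild type worms (1 X1, 1 X2, 2 Xins), from worms given control dsRNA (coding for GFP), and from worms given dsRNA against *bruli* or against the muscleblind-like genes (*mbnl*), each of these 3 with 2 X1, 1 X2 and 2 Xins libraries. A further 9 libraries were made from whole worms, 1 for control RNAi and 1 each for *bruli*, *celf*, *esrp*, *mbnl*, *nova*, *ptbp*, *rbfox1* and *rbfoxS* RNAi. All worms belonged to the asexual Berlin-1 strain and those in the RNAi groups were injected on 3 consecutive days at 1 µg/µl of each dsRNA, so that the genetic background is shared and each gate is a mixture of cell types.

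Planarian neoblasts are the only dividing somatic cells of the animal and replace every tissue, including gut, epidermis, muscle, neurons and secretory cells. Their daughters leave the cell cycle and pass through lineage-specific progenitor states before they take on their final form. A transcript that is low in X1 and X2 and high in Xins is called late here. The word describes its levels in these gates, and when its RNA accumulates within a lineage was not tested. None of the 200 is among the 367 transcripts that carry a gene name in the annotation used here, which covers RNA-binding proteins, spliceosome components and a few genes with stem cell-regulated exons. Members are therefore given by transcript identifier, with no function.

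In units of 1e6, counts summed to 12.8 to 35.0 per library, and 3 counts correspond to 0.0858 to 0.235 counts per 1e6 (CPM). Of the targeted transcripts, *bruli*, a CELF-family RNA-binding protein of neoblasts, was at 341 and 520 cRPKM in the X1 control libraries and at 42.4 and 74.5 after *bruli* RNAi, and *mbnl-like-1* was at 8.23 and 7.64 cRPKM in the Xins control libraries and at 1.21 and 2.01 after *mbnl* RNAi. Also in Xins, *mbnl-1* was at 32.6 and 37.2 cRPKM in control and at 8.47 and 22.04 after *mbnl* RNAi. In whole worms, with 1 library each, not every transcript of a targeted family was lower in its own knockdown. *ptbp-3* was at 16.98 cRPKM after *ptbp* RNAi against 15.13 in control. The *nova-4* transcripts were at 1.68 and 0.69 after *nova* RNAi against 0. *mbnl-like-3* was only slightly lower, at 1.16 after *mbnl* RNAi against 1.34. The fractions also carried most of their markers. All 8 neoblast transcripts of the marker list, among them 2 *PIWIL1* and 2 *DDX4* homologues, were lower in Xins than in X1 control libraries (edgeR's quasi-likelihood test, Benjamini-Hochberg adjusted p from 1.7e-05 to 7.6e-05). Of 14 neural RNA-binding protein transcripts, 12 were higher and 1 was lower. Of 4 epithelial transcripts tested 3 were higher, and of 3 muscle transcripts 2, with 0 lower in both lists. Among all transcripts tested, 37.6% were higher and 29.0% lower.

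The rule's edge was narrow. The first member, comp7131, had a distance of 7.64 on the log2 scale, the median member 3.78, comp10858 at rank 200 had 3.21, and comp14268 at rank 201, just outside, had 3.21 as well. The largest distance between X1 and X2 in a member was 0.493, and 494 other transcripts were as far above X1 and X2 in Xins but were left out because X1 and X2 differed by 0.5004 or more. In wild type, 84 members were under 1 cRPKM in both X1 and X2, whereas 24 reached 10 cRPKM in at least 1 of them. For these 24 the description "on only in Xins" goes against the levels. An example is comp609 with 25.4 cRPKM in X1, 18.6 in X2, and 4136 and 2582 in the Xins libraries, so that the members are better described as higher in Xins than as silent elsewhere. The 2 wild type Xins libraries were more than 4-fold apart for 31 members.

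**Figure D1:**
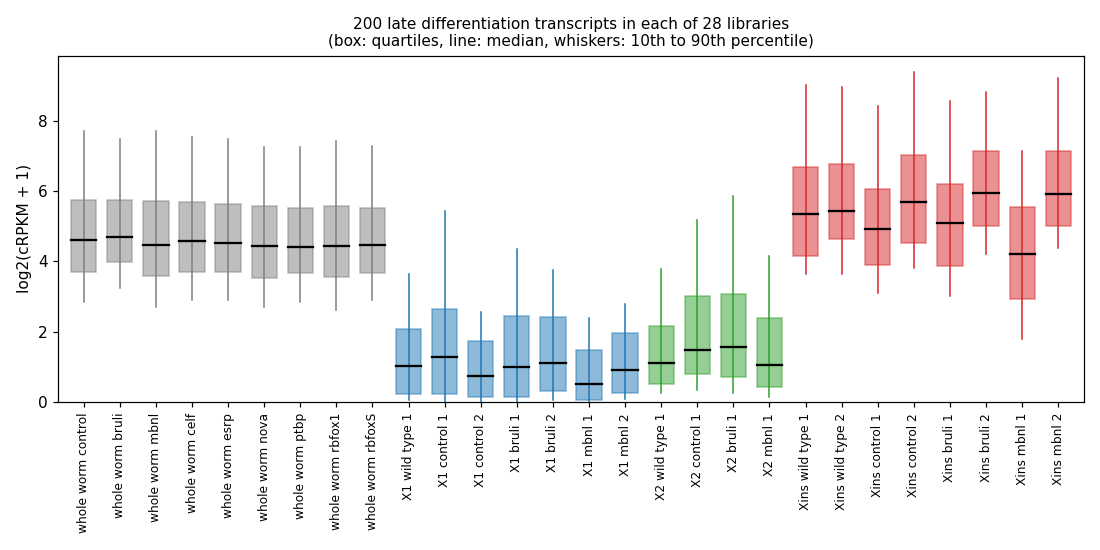
Levels of the 200 members, as log2(cRPKM + 1), in each of the 28 libraries (box, quartiles; black line, median; whiskers, 10th to 90th percentile; grey, whole worm; blue, X1; green, X2; red, Xins). Median levels were 17.5 to 61.0 cRPKM in the 8 Xins libraries, 0.43 to 1.44 in the 7 X1 libraries, 1.07 to 1.98 in the 4 X2 libraries and 20.3 to 25.0 in whole worms.

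In the control RNAi libraries, which had no part in the choice, the members again stood far higher in differentiated cells. Their median was 29.2 and 50.7 cRPKM in the 2 Xins libraries, 1.44 and 0.69 in the 2 X1 libraries and 1.79 in the X2 library. They took 3.70% and 5.36% of all counts in Xins but 0.370% and 0.0526% in X1 and 0.280% in X2. All 200 had both Xins libraries above both X1 libraries and above the X2 library, without overlap, where 45.7% of the 15910 transcripts tested did so. Against the mean of the Xins libraries, the median member kept 5.14% of its level in X1 replicate 1, 0.861% in X1 replicate 2 and 6.68% in X2. Over the 15 sorted RNAi libraries, 156 members had all 6 Xins libraries above all 9 X1 and X2 libraries, as did 33.2% of all transcripts tested. Because these are bulk samples, fewer cells of a type and less RNA per cell cannot be told apart.

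All 200 members passed the filter on low values (above 1.5 on log2(cRPKM + 1) in at least 2 of the 15 sorted RNAi libraries). By edgeR's quasi-likelihood test, 181 were higher in Xins control than in X1 control and 0 were lower, against 37.6% of all transcripts higher and 29.0% lower, and the median log2 difference was 4.13 (quartiles 3.36 and 6.79) where that of all transcripts was 0.18. Without X1 control replicate 2 the count was 152 and without X1 control replicate 1 it was 187. Against the single X2 control library, 109 were higher and 0 lower (all transcripts, 10.5% higher and 9.08% lower), with a median of 3.35 beside 0.18. With 1 library, X2 control has no spread of its own, and the fit assumes that it varies like the other groups. That count fell to 76 without Xins control replicate 1 and to 45 without Xins control replicate 2, each of these from 1 library against 1, so that it rested on both Xins libraries. The 109 were also called against X1, and 10.1% of all transcripts were called against both. With the 3 X2 and 6 Xins libraries of control, *bruli* and *mbnl* RNAi averaged, 175 members were higher in Xins than in X2 and 0 lower (34.1% and 25.2% of all transcripts), at a median of 3.67 beside 0.22. These p-values measure the spread between libraries, which are not stated to come from separate groups of worms.

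**Figure D2:**
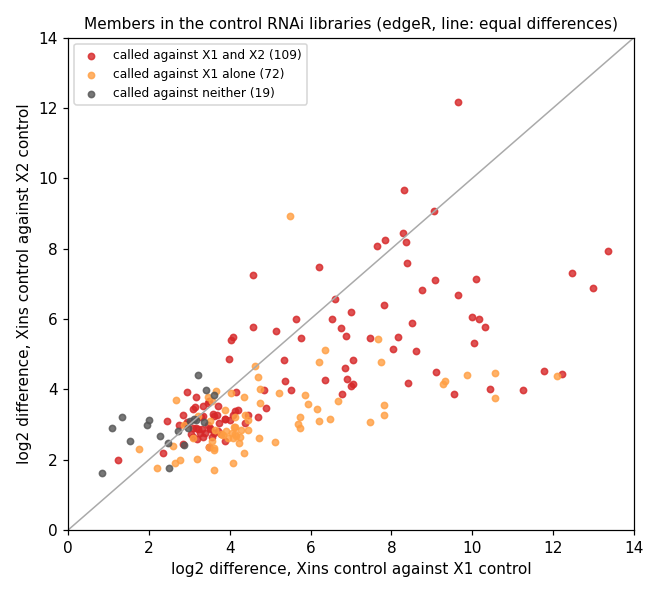
Log2 difference of each member between Xins and X1 control libraries (horizontal axis) and between Xins and X2 control libraries (vertical axis), from the edgeR fit; the grey line marks equal differences. All 200 points lie above 0 on both axes, and 109 were called against X1 and X2, 72 against X1 alone and 19 against neither.

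The distance between X1 and X2, which the rule kept small in wild type, was less even in the control libraries. There, 96 members lay within 0.5 on log2(cRPKM + 1) of the X1 mean in X2, 96 lay more than 0.5 above it and 8 more than 0.5 below it. By edgeR, 16 members (8.0%) were higher in X2 than in X1 and 0 were lower, beside 16.3% and 5.89% of all transcripts, with the spread of the single X2 library again taken from the other groups. The count was 32 without X1 control replicate 1 and 3 without X1 control replicate 2, and no order against all transcripts can be read from it. For comparison, of 200 early differentiation transcripts, chosen in the same wild type libraries for X2 and Xins being alike and both above X1, 170 were higher in X2 than in X1 control and 2 were higher in Xins than in X2 control. Their median log2 difference between Xins and X2 control was 0.29, beside 3.35 for the late members.

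The first 5 members by rank were the furthest above X1 and X2 in wild type, and in the control libraries all 5 were called against X1. comp7131 was at 0 and 1.97 cRPKM in the X1 control libraries, at 3.79 in X2 and at 517 and 1014 in Xins, a log2 difference from X1 of 9.09 (standard error 1.24, edgeR adjusted p = 0.000171). comp8476 was at 0.46 and 0.95 cRPKM in X1, 0.80 in X2, and 48.3 and 709 in Xins (8.36, standard error 1.32, adjusted p = 0.000402). The 2 Xins libraries of comp8476 were therefore themselves more than 10-fold apart, although the lower of them was still far above every X1 and X2 library. comp609 was at 32.6 and 15.7 cRPKM in X1, 36.4 in X2 and 3027 and 3557 in Xins (6.53, standard error 0.526, adjusted p = 1.59e-05). comp238_c1 was at 7.37 and 1.36 in X1, 1.98 in X2 and 499 and 472 in Xins (6.22, adjusted p = 0.000381 by edgeR), and comp1724 at 0 and 1.42 in X1, 8.23 in X2 and 192 and 661 in Xins (8.62, adjusted p = 0.000526 by edgeR). Without X1 control replicate 2, which leaves an X1 library at 0, the fitted difference was 16.33 for comp7131 and 14.64 for comp1724, values that depend on the prior count. For these 5 no control X1 or X2 library came near a control Xins library.

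At the other end of detection, 14 members had 0 counts in both X1 control libraries. The one ranked highest, comp9341 (rank 12), was at 0 in both, at 0.40 cRPKM in X2 and at 88.3 and 203 in Xins. Against a floor of 3 counts summed over the 2 X1 control libraries it was at least 1150-fold higher in Xins. Only 3 members had 0 counts in the X2 control library. Of all members, 53 stayed under 1 cRPKM in all 3 X1 and X2 control libraries, while 41 reached 10 cRPKM in at least 1 of them.

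The most abundant members were detected in every fraction, although comp68 and comp18 were far apart between the 2 X1 control libraries. comp68, with the highest mean in Xins control, was at 7246 and 22571 cRPKM there, at 1370 in X2 and at 787 and 28.9 in X1. Its 2 X1 libraries thus disagreed by far more than its Xins libraries. comp27 was at 3672 and 7663 cRPKM in Xins, 92.4 in X2, and 342 and 102 in X1 (log2 4.02, adjusted p = 0.000339 by edgeR), and comp43 at 2592 and 6698 in Xins, 70.2 in X2, and 258 and 87.6 in X1 (4.09, adjusted p = 0.000311 by edgeR). The ratio of comp27 to comp43 kept between 1.07 and 1.57 over all 28 libraries (median 1.18). Whether they are copies of each other that share reads was not tested, and they may count as 1 observation. comp18 was at 2317 and 3341 cRPKM in Xins, 213 in X2, and 1415 and 18.3 in X1, and with X1 so far apart it was not called (log2 1.32, standard error 1.38, adjusted p = 0.407 by edgeR). Without X1 control replicate 1 the difference of comp18 was 6.77 and was called (adjusted p = 0.00238 by edgeR), and without X1 control replicate 2 it was 0.26.

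**Figure D3:**
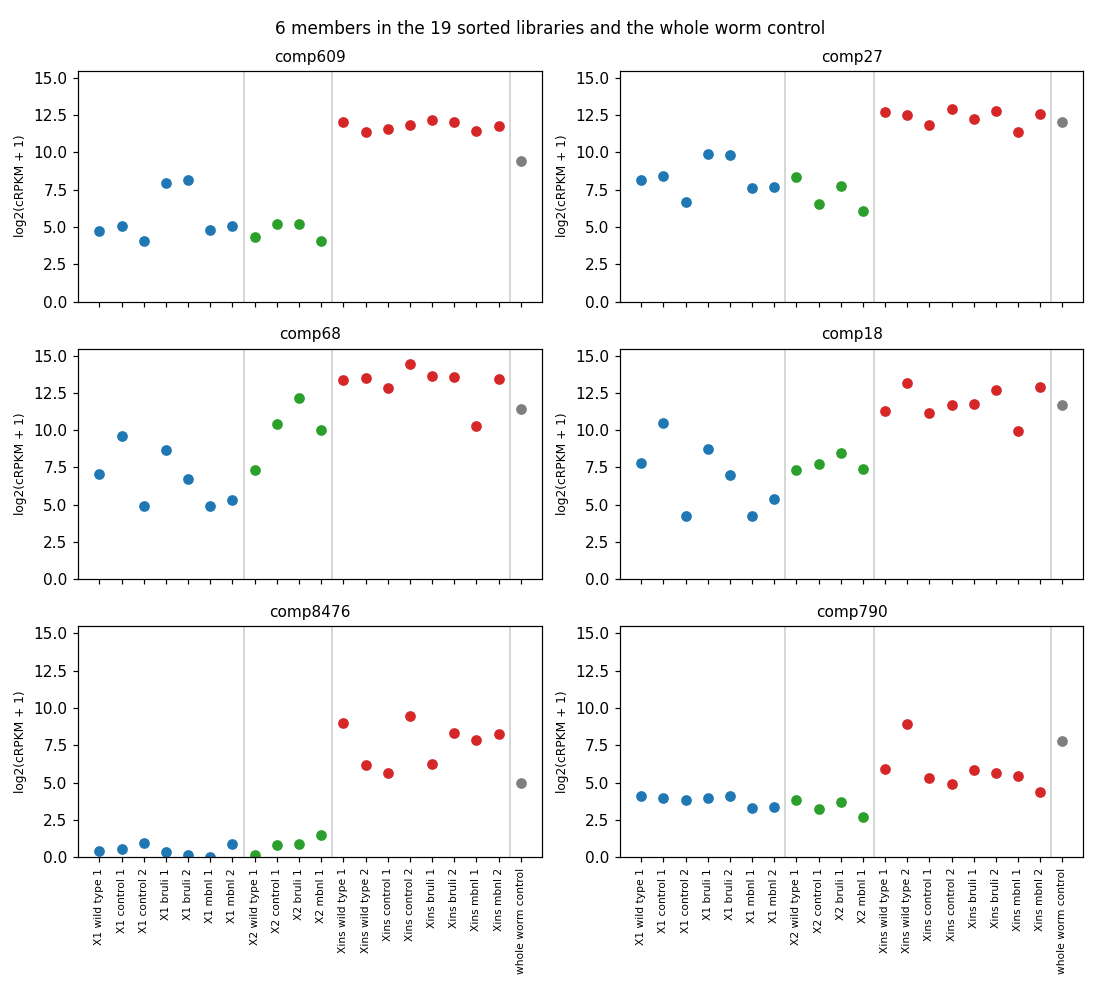
Levels of 6 members, as log2(cRPKM + 1), in the 7 X1 (blue), 4 X2 (green) and 8 Xins (red) libraries and the whole worm control (grey), each point 1 library. comp609 and comp27 were highest within X1 in the 2 *bruli* RNAi libraries (247 and 280, and 935 and 900 cRPKM), comp68 and comp18 in X1 control replicate 1 (787 and 1415 cRPKM), and comp790 was at 488 cRPKM in wild type Xins replicate 2 against 20.0 to 59.9 in the other 7 Xins libraries.

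The scatter of comp68 and comp18 within X1 was shared by many members. In X1 control replicate 1, 52 members were more than 1 above replicate 2 on log2(cRPKM + 1) and 4 more than 1 below it. Of the 95 members above the low-value limit (1.5 in at least 1 of the 2 libraries), 49 (51.6%) were that far above and 2 (2.11%) that far below, beside 2.84% and 9.33% of all transcripts above the limit. The furthest apart was comp18, by 6.20, followed by comp327, which was at 280 and 4.42 cRPKM in the 2 X1 control libraries. The 52 had a median of 15.7 cRPKM in X1 control replicate 1, 1.29 in replicate 2, 5.54 and 4.52 after *bruli* RNAi, 1.27 and 2.10 after *mbnl* RNAi and 3.04 in wild type. The other 148 had a median of 0.495 and 0.550 in the 2 X1 control libraries. The sum of 7 neoblast markers (*bruli* left out) was 11400 and 11700 CPM in these libraries, and the sum of 14 neural RNA-binding protein transcripts was 131 and 134. The 5 epithelial transcripts summed to 35.5 and 27.7 CPM and the 3 muscle transcripts to 13.6 and 10. Both lists were thus higher in replicate 1, but by far less than the 52 members. In X1 *mbnl* replicate 1 the 2 sums were higher still, at 38.1 and 19 CPM, while the 52 had a median of 1.27 cRPKM. The part of these lists was not tested. Of the 19 members not called between Xins and X1 control, 17 were among the 52.

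Much the same members differed between other libraries. In X2 cells, 42 members were more than 0.7 higher after *bruli* RNAi than after control RNAi, 1 library each. Among the 113 members above the low-value limit there were 41 (36.3%), where 4.17% of all transcripts above it were. Of the 42, 37 (88.1%) were among the 52 of X1 (71.2% of the 52). comp767, ranked sixth and named for this reason after its values were seen, was at 107 and 1.74 cRPKM in the X1 control libraries, and in X2 at 126 after control, 483 after *bruli* and 96.4 after *mbnl* RNAi. In Xins cells after *mbnl* RNAi, 149 members were more than 1 lower in replicate 1 than in replicate 2 (36.4% of all transcripts). Another 4 were more than 1 higher (2.36% of all transcripts). Of the members, 45 were more than 3 lower, and 33 of these (73.3%) were among the 52. The share of all transcripts more than 3 lower is not given here, so the 45 cannot be set against it. For both overlaps, the 52 are part of 200 members. Most members that passed the X1 and X2 cuts lay above the low-value limit, 49 of the 52 and 41 of the 42. Of the 95 members above it in X1 control, those 49 are 51.6%. The 52 were also more abundant than the other members, with whole worm control medians of 54.5 and 19.3 cRPKM. How far abundance accounts for the overlaps was not tested. comp68 was at 1215 and 11175 cRPKM in the 2 Xins *mbnl* libraries, and comp2843 at 3.47 and 213. The median member was 2.01 lower in Xins *mbnl* replicate 1, where all transcripts above the low-value limit were 0.71 lower in the median. What sets these libraries apart was not tested.

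**Figure D4:**
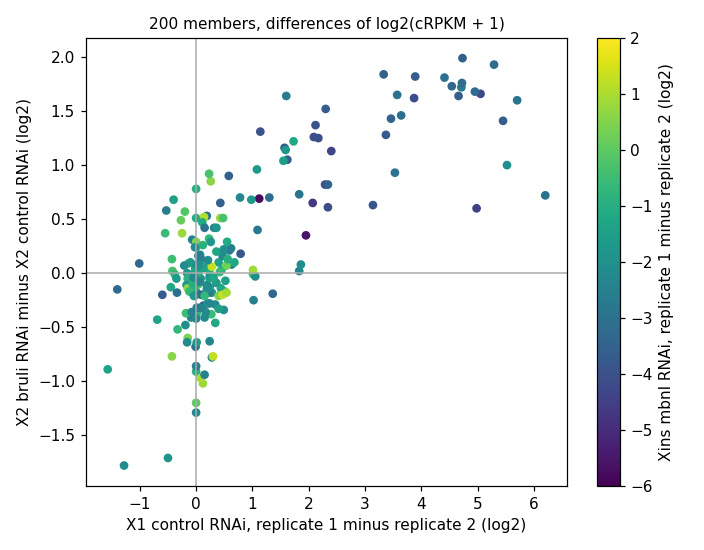
Each point is 1 of the 200 members, placed by its difference between the 2 X1 control libraries (horizontal) and between the X2 *bruli* and X2 control libraries (vertical), both on log2(cRPKM + 1), and coloured by its difference between the 2 Xins *mbnl* libraries. Of the 52 members more than 1 to the right, 37 lay more than 0.7 above the horizontal line.

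The Xins libraries also differed by replicate number, which is shared with depth. Replicate 1 of the Xins libraries held 24.1, 20.7 and 15.8 counts in units of 1e6 for control, *bruli* and *mbnl* RNAi, and replicate 2 held 32.7, 32.9 and 34.1. In Xins control 81 members were more than 1 lower in replicate 1 and 7 more than 1 higher (20.2% and 3.21% of all transcripts), and in Xins *bruli* 94 were lower and 4 higher (21.3% and 1.47%). In all 3 groups 25 members (12.5%) were more than 1 lower in replicate 1, where 9.48% of all transcripts above the low-value limit in each group were, comp13645 (named after its values were seen) among them, with 2.25 and 53.5 cRPKM in Xins control, 4.39 and 64.6 after *bruli* and 13.1 and 59.0 after *mbnl* RNAi. The furthest in the opposite direction in Xins control was comp2626, at 207 and 18.0 cRPKM. Within each replicate number the difference between Xins and X1 control persisted, with medians of 3.19 and 4.26 on log2(cRPKM + 1) and 200 of 200 members above X1 in both.

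Some members stood far higher in wild type Xins replicate 2 than in any other Xins library. Whether they would be members without that library was not tested. For 6 of the 200 members the Xins control level was well below that in the whole worm control (log2 ratio under -1). So it was for 16 of 200 early transcripts and 999 of the 10229 transcripts at 5 cRPKM or more in whole worms. In 5 of the 6 members, comp1926, comp1754, comp1261, comp790 and comp640, wild type Xins replicate 2 stood above all other Xins libraries (comp640, and comp6962 below, were named after their values were seen). comp790 was at 488 cRPKM in it, at 20.0 to 59.9 in the other 7, at 168 to 265 in the 9 whole worm libraries, and at 14.5 and 13.0 in the X1 control libraries. It was not called against X1 (log2 0.84, standard error 0.525, adjusted p = 0.175 by edgeR) or X2 (1.61, adjusted p = 0.116 by edgeR), whereas limma on log2(cRPKM + 1) called it against both (adjusted p = 0.0133 and 0.0162). comp1926 was at 101 cRPKM in wild type Xins replicate 2 and at 5.50 to 13.7 in the other 7. comp640 was less far apart, at 568 cRPKM in that library and at 136 to 419 in the other 7. The sixth, comp6962, was at 22.4 cRPKM in that library and at 3.40 to 32.1 in the others. comp13514, also among the 5 smallest differences in the control libraries, was low throughout, at 2.74 and 5.28 cRPKM in Xins, 0.19 in X2, and 0.22 and 0.61 in X1 (log2 2.66 against X1, adjusted p = 0.0349 by edgeR). That call was lost with DESeq2 (adjusted p = 0.0559) and in edgeR without any 1 of the 4 libraries (adjusted p from 0.057 to 0.161).

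Set against whole worms, the members were higher in Xins than most transcripts were. The log2 ratio of the mean Xins control level to the whole worm control level had a median of 0.61 over the 200 members (quartiles -0.0045 and 1.90) and of 0.026 over the 10229 transcripts at 5 cRPKM or more in whole worms. The early differentiation transcripts had a median of 0.67. The spread among the members was wide, and 44 exceeded a ratio of 2 on the log2 scale. So did 4 of the 200 early transcripts and 127 of the 10229 transcripts. The rule chose members for high wild type Xins levels, and its part in these ratios was not tested. The highest were comp238_c1, at 499 and 472 cRPKM in Xins control but 22.9 in the whole worm control (4.35), and comp7131, at 517 and 1014 in Xins but 39.9 in whole worms (4.23). Whole worms and sorted cells were prepared differently, and their part in these ratios was not tested.

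Length was not a criterion of the rule, but it enters the cRPKM on which the members were ranked. A cRPKM is divided by uniquely mappable positions, so fewer positions give a higher value per read. How far the rule favoured short members was not tested. Counts and cRPKM together imply the number of uniquely mappable positions of a transcript, if the sum of counts is taken as the library total. In the whole worm control this was 658 positions for the median of the 199 members at 1 cRPKM or more (quartiles 417 and 1270), 1680 for the early differentiation transcripts and 1300 for all 13652 transcripts at that level. Of the 199 members, 109 (54.8%) lay under 785 positions, the lower quartile of all transcripts. The range ran from 63 positions for comp5391, which therefore has few counts behind its values, to 11000 for comp238_c1. Short mappable length can mean a short transcript, a fragment or a repeated sequence, which cannot be told apart here.

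**Figure D5:**
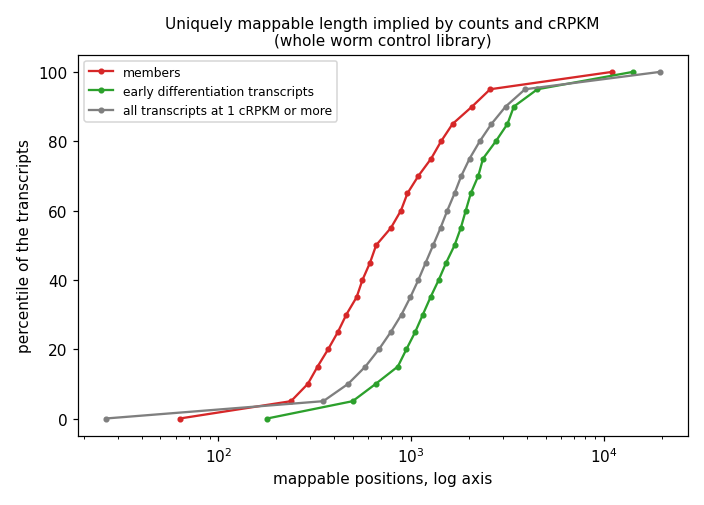
Percentiles of uniquely mappable positions (log axis) in steps of 5 for the members (red), the early differentiation transcripts (green) and all transcripts at 1 cRPKM or more in the whole worm control (grey). The members' median is 658 positions, that of the early transcripts 1680 and that of all transcripts 1300.

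Knockdown of *bruli* or *mbnl* left the members of Xins cells without a call. For Xins *bruli* against Xins control edgeR called 0 of 200 members and 0.0% of all transcripts, with 0 members at an unadjusted p under 0.05 (0.0503% of all transcripts higher and 0.61% lower) and a median log2 difference of 0.22. Within replicate numbers the median on log2(cRPKM + 1) was 0.07 and 0.22. For Xins *mbnl* against Xins control the count was 0, with 1 member higher and 0 lower at an unadjusted p under 0.05 (0.559% and 1.43% of all transcripts) and a median of 0.05, but the 2 replicate numbers went opposite ways, at -0.85 and 0.28. Between Xins *bruli* and Xins *mbnl* the count was also 0 (1 member higher and 0 lower at an unadjusted p under 0.05, beside 0.534% and 0.509% of all transcripts). DESeq2 and limma called 0 members in each of these 3 comparisons. In simulated data for the *mbnl* comparison, 200 of 15910 transcripts were changed. Of these changes, 1.0% were recovered at 4-fold, 64.0% at 8-fold and 91.5% at 32-fold. In the simulated transcripts, changes under about 8-fold were therefore mostly not detectable. The simulation was not made for the members at their levels in Xins, so the limit for the members was not tested.

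In X1 cells, where the members are low, 1 member came close to a call after *bruli* RNAi. edgeR called 0 of 200 members and 0.0% of all transcripts, with 8 members higher and 0 lower at an unadjusted p under 0.05 (4.19% and 1.99% of all transcripts). The 8 are no larger a share of the 200 than that of all transcripts. The smallest adjusted p was that of comp609, which was at 32.6 and 15.7 cRPKM in the X1 control libraries, 247 and 280 after *bruli* RNAi, 26.2 and 33.0 after *mbnl* RNAi and 25.4 in wild type. Both *bruli* libraries lay above all 5 other X1 libraries, at a log2 difference of 3.34 (standard error 0.452, edgeR adjusted p = 0.0849). It was called by DESeq2 (adjusted p = 2.04e-08) and by limma on log2(cRPKM + 1) (adjusted p = 0.0271), each of which called this 1 member, and by edgeR with no filter (adjusted p = 0.0498), while leaving out any 1 of the 4 libraries gave an edgeR adjusted p from 0.205 to 0.589. The shares of all transcripts called by DESeq2 and limma are not given here, for this or the other knockdown comparisons. In X2 comp609 was at 36.0 cRPKM after *bruli* RNAi and 36.4 after control RNAi, and in Xins at 4570 and 4261 after *bruli* RNAi against 3027 and 3557. comp27 (935 and 900 cRPKM after *bruli* RNAi, 342 and 102 in control) and comp43 (678 and 759, against 258 and 87.6) also had both *bruli* libraries above both controls, each at a log2 difference of 1.93 and an edgeR adjusted p of 0.464. comp43 and comp609 had the smallest p-values of this comparison and were singled out after their values were seen.

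Marker lists differed in the same 2 libraries, other than that of muscle. The 7 neoblast markers (*bruli* left out, none at 0 counts) summed to 5120 and 5330 CPM in X1 *bruli* and to 9770 to 11800 in the other 5 X1 libraries, the 14 neural RNA-binding protein transcripts to 182 to 193 against 125 to 136, and the 5 epithelial ones to 41.5 to 42.4 against 27.7 to 38.1. The 3 muscle transcripts summed to 13.3 to 14.8 CPM in X1 *bruli* and to 10 to 19 in the other 5. Their part in the levels of comp609, comp27 and comp43 was not tested. Over all members the median log2 difference in X1 *bruli* was -0.04, and 47 members were above control in both replicate numbers and 22 below in both.

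After *mbnl* RNAi in X1, edgeR called 0 of 200 members and 0.0% of all transcripts, DESeq2 and limma called 0, and the median log2 difference was -0.30. At an unadjusted p under 0.05 there were 1 member higher and 29 lower, where 0.805% and 1.02% of all transcripts were. Of the 29, 27 (93.1%) were among the 52 members that were high in X1 control replicate 1, a library of the same comparison. comp18, with 1415 and 18.3 cRPKM in the controls and 18.1 and 41.6 after *mbnl* RNAi, had a log2 difference of -4.65 with all libraries of 0.90 without X1 control replicate 1 and of -5.6 without replicate 2. No member was more than 1 below control in both replicate numbers. The change of the distance between Xins and X1 gave 0 calls for either knockdown by edgeR, DESeq2 and limma, with 2 members higher and 5 lower for *bruli* and 2 higher and 2 lower for *mbnl* at an unadjusted p under 0.05 (0.641%, 2.07%, 0.371% and 0.861% of all transcripts).

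In X2, with 1 library per condition and no test, the members went apart. After *bruli* RNAi 42 were more than 0.7 higher, as given above, and 13 more than 0.7 lower. Of the 113 members above the low-value limit, 9 (7.96%) were lower, beside 6.05% of all transcripts above it, and their median was 0.37 beside 0.02. After *mbnl* RNAi 1 was higher and 56 were lower. Of the 101 members above the limit, 0 were higher and 43 (42.6%) lower, where 2.76% and 15.7% of all transcripts were, and the median was -0.63 beside -0.21. Both comparisons use the same control library. comp2626 was at 5.19 cRPKM after control RNAi, 2.16 after *bruli* RNAi and 0.11 after *mbnl* RNAi. The 7 neoblast markers summed to 3670 CPM after control, 1820 after *bruli* and 3040 after *mbnl* RNAi, the 5 epithelial transcripts to 148, 148 and 79.7, the 14 neural ones to 378, 514 and 313 and the 3 muscle ones to 51.9, 64.9 and 54.2, beside members' medians of 1.79, 1.98 and 1.07 cRPKM. Their part was not tested.

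In whole worms the members' median was nearly constant. Single members differed from control by log2 -1.79 (*esrp* RNAi) to 1.43 (*bruli* RNAi). The median over the 200 was 23.6 cRPKM after control RNAi and 20.3 to 25.0 after the 8 knockdowns, and the members took 1.52% to 1.88% of all counts. After *bruli* RNAi 12 members (6.0%) were more than 0.7 higher and 0 lower, where 7.13% and 0.726% of all transcripts were. After *mbnl* RNAi 1 was higher and 6 (3.0%) were lower (0.536% and 1.62%). After *nova* RNAi, which targets genes known from neurons, 3 were higher and 10 (5.0%) lower (2.02% and 1.76%), and after *ptbp* RNAi 8 (4.0%) were higher and 4 lower (1.13% and 0.699%). For *celf* the counts were 7 (3.5%) higher and 4 (2.0%) lower (3.12% and 0.553%), and for *esrp* 5 (2.5%) and 5 (2.5%) (0.932% and 0.652%). For *rbfox1* they were 2 (1.0%) and 9 (4.5%) (0.44% and 0.77%), and for *rbfoxS* 4 (2.0%) and 5 (2.5%) (2.72% and 0.868%). The largest differences after *bruli* RNAi were in comp7094, at 4.10 cRPKM in control and 12.8 after *bruli* RNAi (log2 1.43), comp5631, at 6.42 and 15.3 (1.14), and comp12179, at 5.20 and 11.5 (1.02). comp7094 was also above control in the other 7 knockdowns, by 0.20 to 1.17, so that its control value is the lowest of the 9. After *mbnl* RNAi they were in comp6938, at 15.4 and 37.5 cRPKM (1.23), comp13743, at 4.76 and 1.54 (-1.18), and comp5969, at 11.4 and 4.82 (-1.09). With 1 library each, none of these differences has a replicate check, and all 8 share the control library.

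The 333 transcripts with a gene name that passed the filter are largely RNA-binding protein and spliceosome transcripts. Among them, several RNA-binding protein transcripts followed the mean profile of the members over the 15 sorted RNAi libraries. This is a description with no test, since the fractions and libraries are shared. The highest Pearson r of log2(CPM + 1) was that of a homologue of *RBMS1*, an RNA-binding protein gene, at 0.986, with 0.235 cRPKM on average in X1 control, 1.18 in X2 and 14.8 in Xins. *nova-2* followed at 0.979 (2.44, 3.62 and 12.7 cRPKM), and *nova-1*, of the same family of splicing regulators known from neurons, was at 0.933 (25.6, 57.5 and 189). *esrp-1*, of a family known from epithelia, had 0.942 (4.81, 7.02 and 36.5), and the other transcripts among the first 8 were homologues of *A1CF* (0.937), *QKI* (0.912), *CPEB3* (0.899) and *MSI1* (0.898). The members themselves had r between 0.671 and 0.993 with that profile (median 0.951), of which each member is a part. Pearson r does not measure the size of a difference. Between Xins and X2 control the log2 differences of the first 8 ran from 1.09 (*A1CF*) to 3.13 (*RBMS1*), beside 3.35 for the median member. Only *esrp-1*, *nova-1* and *QKI* were called there (edgeR adjusted p = 0.0314, 0.0366 and 0.047). Like 16 of the members, *CPEB3*, *MSI1* and *nova-1* were higher in X2 than in X1 control (log2 3.42, 5.33 and 1.13, edgeR adjusted p = 0.00132, 0.000754 and 0.0309), and the other 5 did not pass that test (adjusted p from 0.114 to 0.829 by edgeR).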

How the data were processed

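RNA-seq libraries (TruSeq RNA v2) gave, per transcript of a de novo transcriptome, 2 deposited values. The authors made the first, a cRPKM (RPKM corrected for mappable positions), with vast-tools, and deposited a raw count beside it. Reads were mapped with Bowtie according to the submitters' notes (versions: not given in the sources used here). The 48924 blank counts, all with a cRPKM of 0, were read as 0.

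Counts of the 15 sorted RNAi libraries (9 groups) were fitted together in edgeR 4.0.16 (R 4.3.3) with TMM scaling, without a block, after keeping transcripts above 1.5 on log2(cRPKM + 1) in at least 2 libraries, with Benjamini-Hochberg adjustment over the 15910 transcripts tested and calls at adjusted p under 0.05. Comparisons with 1 library per group used log2((cRPKM + 1)/(control cRPKM + 1)) with a limit of 0.7, a pseudocount that understates changes of low transcripts, among transcripts above 1.5 in at least 1 of the 2 libraries. limma 3.58.1, DESeq2 1.42.0, other filters, scalings, pseudocounts and left-out libraries were alternatives. The fit was tested on simulated data. Members, marker lists and named transcripts (first 5 by rank, 5 highest in Xins control, 5 with the smallest differences in control libraries, largest whole worm differences) were chosen with earlier results of these data known. None of the identifiers that the rule leaves out was among the 200. Counting error only is covered by the floor of 3 counts.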

Additional observations from a re-analysis of the deposited data

How the results depend on the processing

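Counts of members called are given here as percentages of the members. The comparison of Xins with X1 control was within 1.5 times of 90.5% in every alternative run, and so was that of Xins with X2 over the 3 RNAi groups (87.5%). Leaving out 1 library at a time gave 76.0% to 93.5% for Xins against X1 control, 22.5% to 38.0% for Xins against X2 control (54.5% with all), 1.5% to 16.0% for X2 against X1 control (8.0% with all) and 82.5% to 93.5% for the average over RNAi groups, while all knockdown comparisons in Xins and X1 stayed at 0.0%. X2 against X1 control was 12.5% with DESeq2, 0.5% with limma on log2(cRPKM + 1), and 5.33% with the members whose wild type Xins libraries lie within 4-fold, an alternative chosen after seeing the data. With the replicate number as a block, which the labels do not state to pair libraries, it was 15%, and X1 *bruli* against control went from 0.0% to 0.5% (comp609, adjusted p = 0.00593 by edgeR). DESeq2, limma and no filter also gave 0.5% there. The block also called comp790 against X1 (adjusted p = 0.0444 by edgeR) and X2 control (adjusted p = 0.0079 by edgeR). Differences between replicates 2 and 1 correlated between groups at 0.0368 to 0.723 across transcripts. The first 100 by rank gave 37.0% in place of 21.0% for X2 *bruli* higher and 1.0% in place of 0.5% for X2 *mbnl* higher. X2 *bruli* lower (6.5%) was 16.0% with a pseudocount of 0.1, 1.0% with 5 and 3.5% on CPM. X2 *mbnl* higher was 5.0%, 0.0% and 0.0% under the same 3, and X2 *mbnl* lower (28%) was 51.0% with 0.1 and 9.5% with 5. Over the 8 whole worm knockdowns together, higher (2.62%) was 0.938% with 5 and 1.56% on CPM, and lower (2.69%) was 0.812% with 5. comp18 in X1 *mbnl* turned from -4.65 to 0.90 without X1 control replicate 1 (leaving out 1 library at a time gave -5.6 to 0.90), the only reversal among 101 differences of named members. Of these 101, 13 lost their call and 18 gained one under at least 1 alternative, comp13514, comp2843 and comp1926 among the former for Xins against X1 control. The cause was not tested in these cases, other than that fewer libraries enter where 1 is left out. Members under 1 cRPKM are limited by depth, and those with few mappable positions more so.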
